A study of Mus musculus with 15 samples.

Results

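TRBJ2-7 receptors are T-cell receptor beta chains (TCRβ) joined with the J segment at the downstream end of the mouse TRBJ2 cluster, whose germline end gives the residues EQYF (glutamate, glutamine, tyrosine, phenylalanine). Members were all clonotypes with a TRBV segment, a TRBJ2 segment and a CDR3 that ended in EQYF. They numbered 12215 of 59364 clonotypes (20.6%), of which 803 were in mutant TET libraries, 65 in WT TET, 6674 in mutant CD8 and 4673 in WT CD8. All mice were 125 days old and of the non-obese diabetic (NOD) strain, in which T cells destroy the insulin-producing beta cells. Ifngr-1-mutant NOD mice, in which a chain of the interferon-γ receptor is mutated, were compared with wild-type (WT) NOD mice.

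Spleen and non-draining lymph nodes of a mouse were pooled and stained with an H-2Kd tetramer that carries IGRP206–214, a peptide of the beta cell antigen IGRP. Magnetic columns then gave 2 fractions: IGRP-tetramer positive CD8 T cells (TET) and CD8+CD44+ cells of the flow-through that did not bind the tetramer (CD8). The groups were mutant TET (n = 4), WT TET (n = 3), mutant CD8 (n = 4) and WT CD8 (n = 4), 1 library per mouse and fraction. The TET library of a 4th WT mouse was not analysed here. The tables list receptor sequences only, so neither the sort nor the mutation could be checked against marker genes.

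A TCRβ chain is assembled in the thymus by joining a V, a D and a J segment, with bases removed and added at each junction. The joined stretch encodes the third complementarity-determining region (CDR3), the loop that lies over the peptide in most structures of receptors bound to peptide and MHC. The V segment gives the start of the CDR3 and the loops that mostly touch the MHC molecule, and the J segment gives the end of the CDR3. Clones that recognise an antigen divide, so the count of a clonotype reports its size as well as the RNA of each cell, and fewer cells and less RNA per cell cannot be told apart.

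The receptors below carry the results that follow, and their nucleotide CDR3s are read 5′ to 3′ on the coding strand from the deposited tables. Capitals mark the unbroken run of bases, counted back from the 3′ end, that matched the most frequent end of TRBJ2-7 clonotypes in the CD8 libraries. No germline J sequence was used, so the capitals do not show exactly which bases are J-encoded. That end is TCCTATGAACAGTACTTC, and 23.6% of the TRBJ2-7 clonotypes in CD8 held it whole. The TCRβ locus lies on mouse chromosome 6. The first 9 sequences belong to the 3 receptors found in 4 to 6 TET libraries and to the 5 with the highest mean share of counts among the 11 found in 3, the next 2 are the largest TRBJ2-7 clonotypes of WT TET 1 and WT TET 3, and the last 3 belong to receptors found in 6 or 7 CD8 libraries.
TRBV13 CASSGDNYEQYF, form found in 6 TET libraries: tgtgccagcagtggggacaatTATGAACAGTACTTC
TRBV13 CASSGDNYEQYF, form found in 2 TET libraries: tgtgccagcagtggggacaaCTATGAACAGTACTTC
TRBV13 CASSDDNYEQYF: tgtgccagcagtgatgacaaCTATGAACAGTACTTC
TRBV13 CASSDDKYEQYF: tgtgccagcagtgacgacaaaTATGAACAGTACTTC
TRBV13 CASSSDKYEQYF: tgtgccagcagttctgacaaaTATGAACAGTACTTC
TRBV13 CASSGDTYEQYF: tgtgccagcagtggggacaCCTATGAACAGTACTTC
TRBV13 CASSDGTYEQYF: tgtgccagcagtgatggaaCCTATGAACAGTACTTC
TRBV13 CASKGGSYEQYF: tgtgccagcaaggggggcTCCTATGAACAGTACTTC
TRBV3 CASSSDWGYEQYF: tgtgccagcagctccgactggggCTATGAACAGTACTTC
TRBV1 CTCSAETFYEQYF: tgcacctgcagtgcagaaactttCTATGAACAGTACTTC
TRBV13 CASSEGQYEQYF: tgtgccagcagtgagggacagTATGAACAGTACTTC
TRBV13 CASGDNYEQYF: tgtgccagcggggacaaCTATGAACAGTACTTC
TRBV13 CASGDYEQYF: tgtgccagcggtgatTATGAACAGTACTTC
TRBV12 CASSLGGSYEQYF: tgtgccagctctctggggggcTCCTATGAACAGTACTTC

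The run holds 15 to 18 bases in these sequences, and only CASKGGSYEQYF and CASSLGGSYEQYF hold it whole. Over all TRBJ2-7 clonotypes the run averaged 15.2 ± 0.11 bases in mutant TET, 15.4 ± 0.76 in WT TET, 15.2 ± 0.074 in mutant CD8 and 15.2 ± 0.037 in WT CD8, given as a description without a test (here and below, ± is the SD over the 4 or 3 libraries of a group). The tables name J segments only by cluster. The deposited J length was 66 nucleotides in 12209 of the 12215 members, against 3 of 7889 clonotypes with the TRBJ2 ending EQFF. A further 502 TRBJ2 clonotypes had that J length and another ending, and were not counted as members. No TRBJ1 clonotype ended in EQYF.

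Depth differed between the groups. TET libraries held 97 to 2199 clonotypes and 2536 to 60164 counts, and CD8 libraries held 2040 to 9827 clonotypes and 17116 to 32856 counts. The WT TET libraries held only 18, 29 and 18 TRBJ2-7 clonotypes, so each of their shares rests on few clonotypes. Mutant TET 4 was the deepest library and held 393 clonotypes. It shared 8 TRBJ2-7 nucleotide clonotypes with WT TET 2, which made up 94.0% of its TRBJ2-7 counts and 25.9% of those of WT TET 2. Other TET pairs also shared clonotypes. Mutant TET 3 and 4 shared 9, which held 77.2% and 30.6% of their TRBJ2-7 counts. Mutant TET 2 and 3 shared 14, with 55.7% and 29.1%. Those pairs were not left out together. Results without both mutant TET 4 and WT TET 2, an exclusion that was not planned, are given where that changed a call. WT CD8 1 held the fewest clonotypes of its fraction.

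TRBJ2-7 averaged a lower share of clonotypes and a higher share of counts in tetramer-binding cells than in the CD8 fraction, and neither difference between library shares passed its exact test after adjustment. Each clonotype counted once, its share was 14.8%, 14.6%, 15.6% and 20.1% in the mutant TET libraries and 17.6%, 23.0% and 18.6% in WT TET. It was 21.2%, 21.7%, 20.7% and 22.7% in mutant CD8 and 22.9%, 19.5%, 20.7% and 20.0% in WT CD8. All 4 mutant TET libraries lay below all 4 mutant CD8 libraries, whereas the WT fractions overlapped. The mean difference between TET and CD8 within strains was -3.16 percentage points (two-sided exact permutation p = 0.0233, adjusted 0.119 over the 46 exact tests made here). With all libraries brought to equal depth it was -1.73 (exact p = 0.5004), with the ending YEQYF -1.36 (exact p = 0.405), and without clonotypes of 1 count -2.71 (exact p = 0.143). Leaving out WT TET 1 or WT TET 3 gave -2.64 (exact p = 0.0638) and -2.87 (exact p = 0.0514). TET and CD8 libraries of 1 strain and number were taken as 1 mouse, although the design text says that no mouse gave duplicate samples, which can be read against it. Of the 7 mice so taken to have both fractions 1 had the higher share in TET, and the exact sign-flip p with the mouse as a block was 0.0625.

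Fitted beside the other J endings with edgeR's quasi-likelihood test, TRBJ2-7 clonotypes fell by 0.43 on the log2 scale in TET (SE 0.07, adjusted p = 1.92e-08). This fit weights libraries by their clonotypes and shares its estimate of spread among the J ending classes. The exact test above takes 1 value per library and did not pass after adjustment. Of the 12 J ending classes 11 passed (91.7%), 6 of them higher (50%) and 5 lower (41.7%), and the median class moved by 0.20, so a call by itself does not set TRBJ2-7 apart. In mutant libraries alone the log2 change was -0.48 (edgeR adjusted p = 1.01e-05), and in WT libraries alone it was -0.04 (edgeR adjusted p = 0.928). The difference between the strains in this effect was -0.44 (SE 0.20) and did not pass (edgeR adjusted p = 0.0663), in a fit where 5 of 12 classes passed. Between mutant and WT TET the log2 change was -0.36 (SE 0.20, edgeR adjusted p = 0.155), where 0 of 12 classes passed (0%) and 4 had an unadjusted p under 0.05. Between mutant and WT CD8 it was 0.07 (SE 0.05, edgeR adjusted p = 0.316), where 1 of 12 classes passed (8.33%).

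By counts the order of the fractions turned. TRBJ2-7 took 31.8%, 25.3%, 28.9% and 35.2% of the counts in mutant TET and 15.5%, 35.4% and 21.5% in WT TET. It took 22.01%, 20.8%, 20.0% and 22.4% in mutant CD8 and 25.3%, 19.1%, 20.3% and 19.5% in WT CD8. Every mutant TET library was above every mutant CD8 library, and WT TET 1 was below all 4 WT CD8 libraries. The difference was 6.03 percentage points (exact permutation p = 0.0469, adjusted 0.166). Leaving out WT TET 2 and mutant TET 4 together gave 2.40 (exact p = 0.293), leaving out WT TET 2 alone gave 3.22, and summing counts in place of clonotypes gave a log2 change of 0.36 in the edgeR fit (adjusted p = 0.333). The share was higher in TET in 6 of 7 mice, with an exact p of 0.109 with the mouse as a block.

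**Figure D1:**
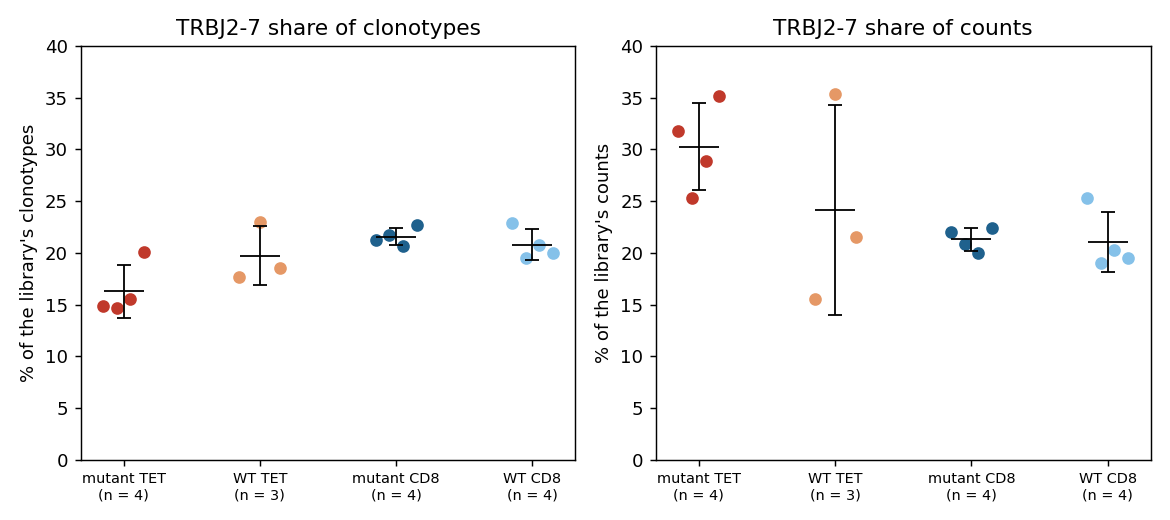
TRBJ2-7 as a percentage of the clonotypes (left) and of the counts (right) of each library, by group. Points are libraries, and bars are means with SD. Mutant TET libraries sit between 14.6% and 20.1% on the left, below all mutant CD8 libraries, and between 25.3% and 35.2% on the right, above them.

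The size of TRBJ2-7 clones relative to their number was highest in mutant TET libraries. It was taken as the log2 ratio of the share of counts to the share of clonotypes, which is 0 where members are as large as the average clonotype of their library. The ratio was 1.10, 0.79, 0.89 and 0.81 in mutant TET and -0.18, 0.62 and 0.21 in WT TET. In the CD8 fraction it stayed between -0.06 and 0.05 in mutant mice and between -0.03 and 0.15 in WT mice. The 4 mutant TET libraries did not overlap with any other group. On average, a TRBJ2-7 clonotype in mutant TET was 1.87 ± 0.19 times as large as the library's mean clonotype (SD, n = 4), against 1.19 ± 0.33 times in WT TET (n = 3).

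Between TET and CD8 the log2 ratio differed by 0.56, that is 1.47-fold (exact permutation p = 0.00612, adjusted 0.0704). It was above 0 in 6 of 7 TET libraries (mean 0.60, exact sign-flip p = 0.0313, adjusted 0.120) and in 2 of 8 CD8 libraries (mean -0.003, exact p = 0.953). Mutant TET exceeded WT TET by 0.68, or 1.60-fold (exact permutation p = 0.0286, adjusted 0.119), the lowest p that this number of libraries can give. Set against the strain difference in CD8, the one in TET was larger by 0.73 (exact p = 0.0286, adjusted 0.119). None of these passed after adjustment. The median TRBJ2-7 clonotype was small in mutant TET, at 5, 3, 2 and 2 counts, where the medians of the other clonotypes of those libraries were 6, 4, 3 and 1. In WT TET its count was 29, 30 and 22, where the medians of the others were 27.5, 10 and 20.

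A handful of large clones held most TRBJ2-7 counts of the TET fraction. The 5 largest took 64.3%, 64.6%, 74.5% and 81.6% of them in mutant TET and 62.6%, 79.4% and 62.8% in WT TET. The 5 largest took 2.45% to 4.82% in mutant CD8 and 1.86% to 8.62% in WT CD8. The mean difference between TET and CD8 within strains was 65.6 percentage points. WT TET libraries held 18 to 29 members and WT CD8 libraries 467 to 1720. With so few members the 5 largest had to take a larger share in WT TET, so the exact test of this value is not read. The number of members also differs between the fractions in mutant mice, and its part in their values was not tested. Of the 10 largest clonotypes of a library, TRBJ2-7 gave 5, 5, 5 and 3 in mutant TET, 2, 5 and 3 in WT TET, 0 to 2 in mutant CD8 and 1 to 4 in WT CD8.

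**Figure D2:**
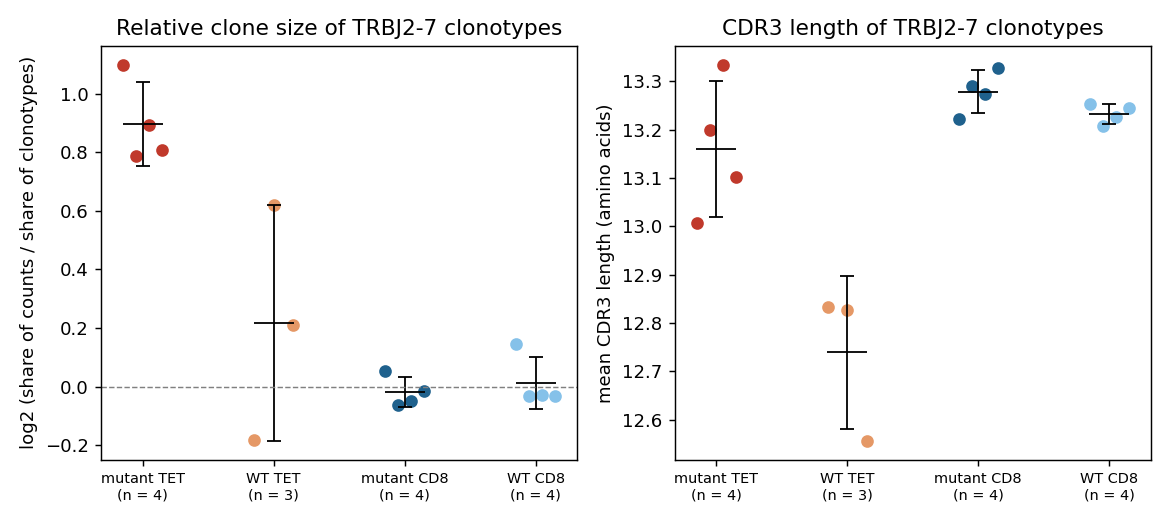
Relative clone size (left, log2 of share of counts over share of clonotypes) and mean CDR3 length in amino acids (right) of TRBJ2-7 clonotypes in each library, by group. Points are libraries, and bars are means with SD. Mutant TET libraries lie between 0.79 and 1.10 on the left, and WT TET libraries between 12.6 and 12.8 residues on the right, below every other library.

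TRBJ2-7 CDR3s averaged shorter in tetramer-binding cells than in the CD8 fraction. The mean length over clonotypes was 13.01, 13.2, 13.3 and 13.1 residues in mutant TET and 12.8, 12.8 and 12.6 in WT TET. It was 13.28 ± 0.044 in mutant CD8 and 13.23 ± 0.020 in WT CD8 (n = 4 each). Each WT TET library was below every other library. The difference between TET and CD8 was -0.31 residues (exact permutation p = 0.00286, adjusted 0.0438). It passed, but the adjustment also counts the test of the 5 largest, which had a lower p and is not read here. The adjustment was not repeated without that test, so no weight is put on the pass. TET was the longer fraction in 1 of 7 mice. Mutant TET was longer than WT TET by 0.42 residues (exact p = 0.0286, adjusted 0.119), and the strain difference in TET exceeded that in CD8 by 0.37 (exact p = 0.0286, adjusted 0.119). Neither passed after adjustment, and weighted by counts the strain difference in TET was -0.065 residues (exact p = 0.857).

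Against clonotypes with other J endings of the same library, TRBJ2-7 CDR3s were shorter in 7 of 7 TET and 8 of 8 CD8 libraries. They differed by -0.95 residues in TET (exact sign-flip p = 0.0156, the smallest possible, adjusted 0.119) and by -0.81 in CD8 (exact p = 0.00781, adjusted 0.0719). The gap between the fractions in this difference was -0.16 residues (exact permutation p = 0.159). A difference in length change between TRBJ2-7 and the remaining clonotypes was thus not shown.

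CDR3s of 12 residues held a larger share of TRBJ2-7 counts in each TET library than in any CD8 library. They held 77.3%, 74.6%, 62.9% and 90.6% of TRBJ2-7 counts in mutant TET and 32.4%, 95.3% and 50.1% in WT TET. In CD8 they held 17.7% to 20.3% in mutant and 18.6% to 24.5% in WT mice, below every TET library. As a share of TRBJ2-7 clonotypes, 12 residues made up 22.05 ± 3.77% in mutant TET, 37.9 ± 8.9% in WT TET, 18.4 ± 1.1% in mutant CD8 and 20.2 ± 2.5% in WT CD8. Weighted by counts the mean length was 12.4 ± 0.28 residues in mutant TET and 12.4 ± 0.34 in WT TET, against 13.2 ± 0.058 in mutant CD8 and 13.1 ± 0.048 in WT CD8. That difference between TET and CD8, -0.74 residues, had an exact permutation p of 0.000408. Short CDR3s of 11 residues made up 9.20 ± 1.11% of TRBJ2-7 clonotypes in mutant TET, 5.56 ± 5.56% in WT TET, 8.90 ± 1.11% in mutant CD8 and 8.01 ± 1.96% in WT CD8.

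**Figure D3:**
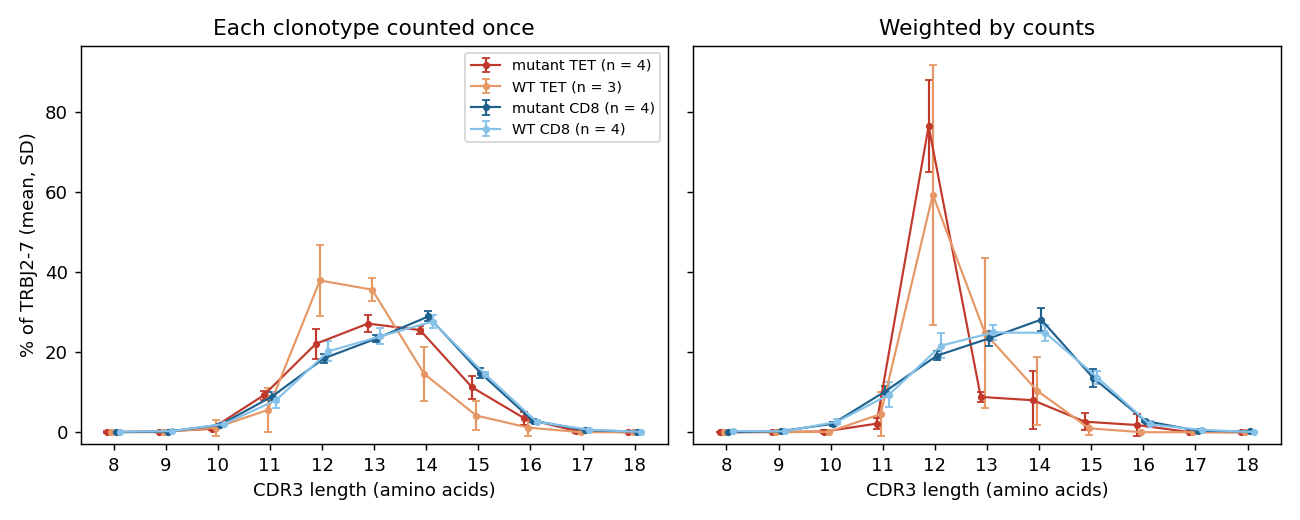
CDR3 length of TRBJ2-7 clonotypes, from 8 to 18 amino acids, as a percentage of clonotypes (left) and of counts (right). Points are group means with SD, shifted sideways by group. Weighted by counts, 12 residues hold 76.4% in mutant TET and 59.3% in WT TET, against 19.1% in mutant CD8 and 21.6% in WT CD8.

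TRBV13, the family of the IGRP-specific clone NY8.3, was the leading V partner of TRBJ2-7 in every library. It made up 48.6%, 39.8%, 40.6% and 51.9% of TRBJ2-7 clonotypes in mutant TET and 61.1%, 55.2% and 44.4% in WT TET. In mutant CD8 it made up 36.1%, 37.3%, 32.4% and 34.3%, and in WT CD8 40.9%, 33.2%, 33.3% and 34.2%. Only WT CD8 1 reached into the range of the TET libraries. The difference between TET and CD8 was 14.2 percentage points, with TET higher in 7 of 7 mice (exact permutation p = 0.000408, the smallest possible, adjusted 0.00939).

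By counts TRBV13 took 89.1 ± 3.3% of TRBJ2-7 in mutant TET and 77.9 ± 17.5% in WT TET, against 47.7 ± 5.6% in mutant CD8 and 50.5 ± 6.2% in WT CD8. The rise of TRBV13 was not shown to differ between TRBJ2-7 and the other J endings (difference -3.47 percentage points, exact p = 0.334). Among clonotypes with other endings TRBV13 made up 45.7 ± 1.1% in mutant TET, 59.9 ± 8.1% in WT TET, 34.4 ± 0.54% in mutant CD8 and 35.9 ± 1.6% in WT CD8. The within-library difference between TRBJ2-7 and the rest averaged -2.97 percentage points in TET (exact sign-flip p = 0.375, above 0 in 3 of 7) and 0.08 in CD8 (exact p = 0.922). The strain comparison did not pass in either fraction. TRBV13 differed by -8.36 percentage points between mutant and WT TET (exact permutation p = 0.171) and by -0.37 between mutant and WT CD8 (exact p = 0.886).

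At position 4 of the CDR3, where the germline members of TRBV13 differ, serine stood in 62.1 ± 4.7% of TRBV13 TRBJ2-7 clonotypes in mutant TET, 62.9 ± 0.66% in WT TET, 51.1 ± 1.9% in mutant CD8 and 48.6 ± 4.1% in WT CD8. Glycine stood there in 27.2 ± 10.3% in mutant TET, 13.4 ± 4.9% in WT TET, 39.9 ± 2.7% in mutant CD8 and 42.8 ± 2.9% in WT CD8. TET was higher in serine and lower in glycine in both strains, with no test made.

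Of 23 V families, 22 were joined to TRBJ2-7 in at least 1 library. In the edgeR fit of all pairs of V family and J ending, 13 TRBJ2-7 pairs passed the filter on low values between TET and CD8, and 10 of them passed the test. Of all 74 pairs 75.7% passed, 35.1% higher and 40.5% lower, and for TRBJ2-7 these were 2 and 8 of 13. The median log2 change was -0.93 over the TRBJ2-7 pairs and -0.21 over all 74. The filter asked for the minimum in 5 libraries, and 7 of the 10 met it only through the fraction in which they were higher: TRBV20 through TET, and TRBV12, TRBV15, TRBV16, TRBV17, TRBV29 and TRBV3 through CD8. A difference was thus built into their choice, so their values are descriptions, and nothing is read from the counts or the median above. TRBV1, TRBV14 and TRBV19 met it in each fraction. The shares below are of all clonotypes of a library.

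The 2 pairs called higher were TRBV1 and TRBV20, V segments that code for other CDR1 and CDR2 loops than TRBV13. TRBV20 with TRBJ2-7 made up 0.597 ± 0.452% of clonotypes in TET and 0.360 ± 0.124% in CD8 (log2 change 0.86, SE 0.28). It was found in all 4 mutant TET libraries, as 44 clonotypes, and in 1 of 3 WT TET libraries, as 1 clonotype. TRBV1 with TRBJ2-7 made up 1.85 ± 0.67% in TET and 1.16 ± 0.12% in CD8 (log2 change 0.49, SE 0.19, edgeR adjusted p = 0.0167). With counts summed in place of clonotypes neither passed, and the log2 change was -0.49 for TRBV20 (edgeR adjusted p = 0.677) and -0.65 for TRBV1 (edgeR adjusted p = 0.512).

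Among the 8 called lower, TRBV12 had no TET clonotype. It paired with TRBJ2-7 in 0 of 5545 TET clonotypes, which allows a share of up to 0.0541%, and in 850 of 53819 CD8 clonotypes (1.58%). Pooled over libraries, the share was thus at least 29.2-fold lower in TET (floor of 3 clonotypes over the fraction). Of the TET clonotypes 5220 were from mutant and 325 from WT libraries, so this bound rests mostly on mutant TET. It covers counting error only, not the spread between mice. TRBV12 was rare in TET with any J ending, at 4 clonotypes in all. TRBV16 gave 9 and TRBV15 gave 5 TRBJ2-7 clonotypes in TET, against 929 and 473 in CD8. Their log2 changes were -3.40 (SE 0.34) and -3.31 (SE 0.44).

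TRBV14 fell by 0.93 on the log2 scale (edgeR adjusted p = 0.00104) and TRBV19 fell by 0.56 (edgeR adjusted p = 0.0234). The log2 change was -1.13 for TRBV17 and -1.08 for TRBV29. TRBV13 (-0.04), TRBV4 (-0.17) and TRBV5 (0.02) did not pass. With TRBJ2-7 clonotypes alone as library size 8 pairs passed, 3 higher and 5 lower, and TRBV14, TRBV19 and TRBV3 were not among them. Without mutant TET 3 the count of TRBJ2-7 pairs called was 6, none of them higher, and in WT libraries alone it was 0, where the TET libraries held 65 TRBJ2-7 clonotypes. No pair of V family and J ending passed for a difference between the strains in its TET effect (0 of 94 pairs in edgeR), and TRBV3 and TRBV13 were the TRBJ2-7 pairs with an unadjusted p under 0.05.

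TRBV3 gave values of unlike direction in the 2 strains. Over both, the fit gave a log2 change of -0.98 (SE 0.29), while the mean of library shares was 1.27 ± 1.12% in TET and 1.06 ± 0.20% in CD8. Within the family, TRBJ2-7 made up 4 of 10, 7 of 21, 3 of 15 and 6 of 6 TRBV3 clonotypes in mutant TET, and 1 of 1, 3 of 3 and 3 of 3 in WT TET. It made up 20.4% to 24.0% of TRBV3 clonotypes in mutant CD8 and 19.1% to 28% in WT CD8. In WT libraries alone the log2 change was 1.02 (edgeR adjusted p = 0.237), and in mutant libraries alone -1.36 (edgeR adjusted p = 4.62e-05). The WT value rests on few clonotypes. In each WT TET library 1 of them was the same nucleotide form of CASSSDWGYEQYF, at 10, 13 and 4 counts. That form held 1272 counts in mutant TET 4, and whether molecules passed between libraries was not tested. The log2 difference between the strains in the TET effect was -2.38 (SE 0.78), which did not pass (edgeR adjusted p = 0.110).

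**Figure D4:**
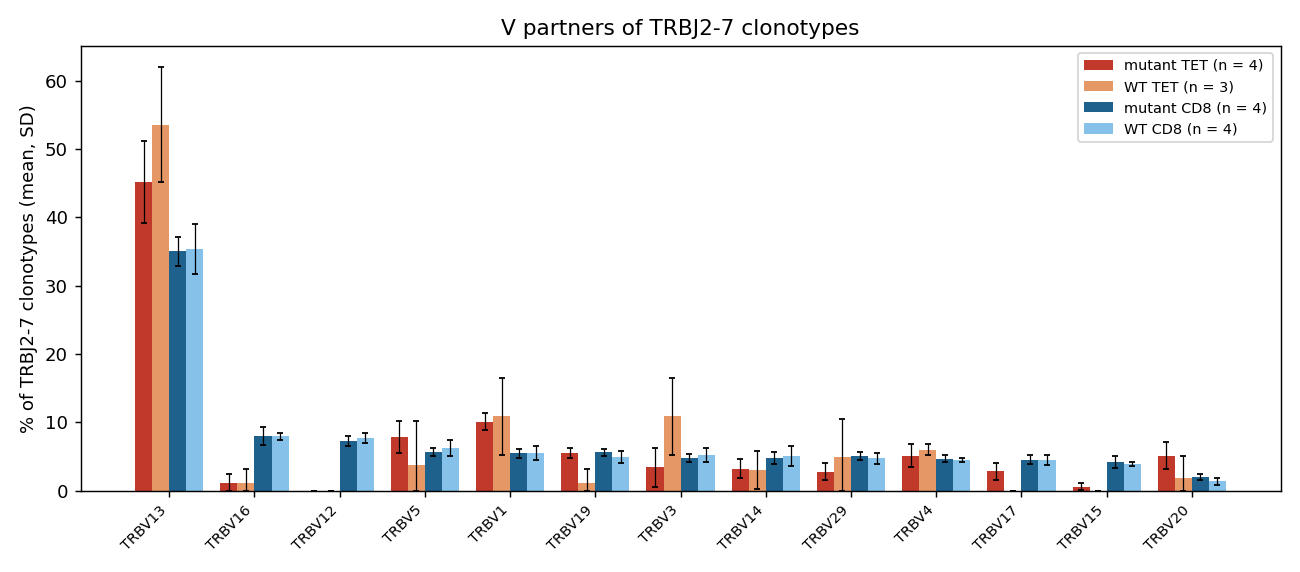
V partners of TRBJ2-7: the 13 families tested between TET and CD8, each as a percentage of a library's TRBJ2-7 clonotypes. Bars are group means with SD (cut at 0 where the SD exceeds the mean), ordered by the CD8 mean. TRBV13 leads in all 4 groups, and the TRBV12 bars of both TET groups are at 0.

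No strain effect on a V partner passed with all libraries. Between mutant and WT TET, 1 TRBJ2-7 pair (TRBV13) had enough clonotypes to be tested, and its log2 change of -0.65 (SE 0.31) did not pass (edgeR adjusted p = 0.20). Of the 10 pairs in that fit 0 passed (0%), and 2 had an unadjusted p under 0.05 (DESeq2 called 0 TRBJ2-7 pairs as well). TRBV13 was called lower in mutant TET without mutant TET 4 (-0.78, edgeR adjusted p = 0.0342). Without WT TET 1, TRBV3 with TRBJ2-7 was called lower in mutant TET (-2.76, edgeR adjusted p = 0.02001). Between mutant and WT CD8, 0 of 15 TRBJ2-7 pairs passed, against 0.781% of 128 pairs, in edgeR, and DESeq2 also called 0. The 1 with an unadjusted p under 0.05 was TRBV20, at 0.437 ± 0.092% of clonotypes in mutant CD8 and 0.283 ± 0.107% in WT CD8 (log2 change 0.67, SE 0.24, edgeR adjusted p = 0.290), and it was called without WT CD8 3 (1.03, edgeR adjusted p = 0.0497).

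The residues just before EQYF are where the J segment meets the bases added at the junction. At position 1, directly before EQYF, tyrosine of the germline J stood in 70.4 ± 6.3% of clonotypes in mutant TET, 72.5 ± 15.1% in WT TET, 68.3 ± 1.1% in mutant CD8 and 68.2 ± 0.8% in WT CD8. TET and CD8 differed by 3.23 percentage points (exact permutation p = 0.489). Serine followed by tyrosine, as in the germline J, stood in 24.6 ± 2.3% in mutant TET, 18.2 ± 17.3% in WT TET, 25.6 ± 1.0% in mutant CD8 and 25.2 ± 2.3% in WT CD8 (difference between TET and CD8 -4.01, exact permutation p = 0.328). Leaving out WT TET 2 and mutant TET 4 together turned the difference in tyrosine to -2.62 (exact p = 0.0114) and made that in serine and tyrosine -9.48 (exact p = 0.00381). They were the libraries highest in tyrosine (89.7% and 79.7%) and in serine and tyrosine (37.9% and 27.8%). A fall was thus built into this unplanned exclusion, and nothing is read from its p-values. The residue next in number at position 1 over all libraries was glycine, at 4.16 ± 3.51% in TET and 7.54 ± 1.199% in CD8, which did not pass (edgeR adjusted p = 0.543). In TET aspartate averaged more than glycine, at 7.41 ± 5.68%, against 4.80 ± 0.51% in CD8 (log2 change 0.37, edgeR adjusted p = 0.318).

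Asparagine and threonine 2 positions before the ending and aspartate 3 positions before it were higher in TET. Of 28 combinations of position and residue, 4 passed in the edgeR fit (14.3%), 3 of them higher (10.7%) and 1 lower (3.57%), and the median change was -0.01. Asparagine at position 2 stood in 4.73%, 5.90%, 3.54% and 11.4% of clonotypes in mutant TET and 0%, 10.3% and 5.56% in WT TET, against 1.98% to 2.51% in mutant CD8 and 2.00% to 2.78% in WT CD8. Every TET library but WT TET 1 was above every CD8 library (log2 change 1.30, SE 0.28, edgeR adjusted p = 0.00011). Threonine at position 2 was at 7.21 ± 5.99% in TET and 3.00 ± 0.39% in CD8 (log2 change 0.81, SE 0.27, edgeR adjusted p = 0.0239). Proline at position 2 was at 1.43 ± 1.97% in TET and 3.09 ± 0.63% in CD8, a log2 change of -1.17 (SE 0.40, edgeR adjusted p = 0.0272). It had 12 clonotypes in TET and met the filter only through CD8, so this is a description, and it was not among the 3 residues called with no filter.

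Aspartate at position 3 stood in 10.1%, 10.9%, 6.69% and 26.6% of clonotypes in mutant TET and 11.1%, 24.1% and 11.1% in WT TET. It stood in 6.49% to 7.45% in mutant CD8 and 5.78% to 6.69% in WT CD8. Mutant TET 3 alone overlapped with the CD8 libraries (log2 change 0.71, SE 0.18, edgeR adjusted p = 0.00123). By counts, aspartate at position 3 took 62.6 ± 2.6% of TRBJ2-7 in mutant TET and 26.8 ± 20.5% in WT TET, against 7.83 ± 0.53% in mutant CD8 and 7.33 ± 1.79% in WT CD8. Asparagine at position 2 took 35.9 ± 9.96% of the counts in mutant TET and 6.32 ± 5.63% in WT TET, against 2.79 ± 0.45% in mutant CD8 and 3.13 ± 2.30% in WT CD8. The strain difference in these count shares was not tested.

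The most frequent residues there did not pass between TET and CD8. Glycine at position 2 was at 29.0 ± 8.5% in TET and 32.9 ± 1.1% in CD8 (edgeR adjusted p = 0.318), and serine at position 2 was at 22.1 ± 10.8% in TET and 25.8 ± 1.5% in CD8 (edgeR adjusted p = 0.605). At position 3, glycine was at 35.6 ± 6.8% in TET and 42.1 ± 1.7% in CD8 (edgeR adjusted p = 0.543), and serine was at 8.52 ± 5.004% in TET and 11.7 ± 0.78% in CD8 (edgeR adjusted p = 0.199). Without mutant TET 4 or without WT TET 2, 2 residues passed in place of 4, and with both left out only asparagine did. With the mouse as a block, asparagine and aspartate passed, while proline and threonine did not. In WT libraries alone 0 passed.

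In the comparison of mutant and WT TET, 0 of 4 tested residues passed in edgeR (0%), with 0 below 0.05 before adjustment and 0 by DESeq2. Without WT TET 3, tryptophan at position 3 was called lower in mutant TET (-1.997, edgeR adjusted p = 0.0106). In that of mutant and WT CD8, 0 of 45 passed in edgeR (0%), with 2 below 0.05 before adjustment and 0 by DESeq2.

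**Figure D5:**
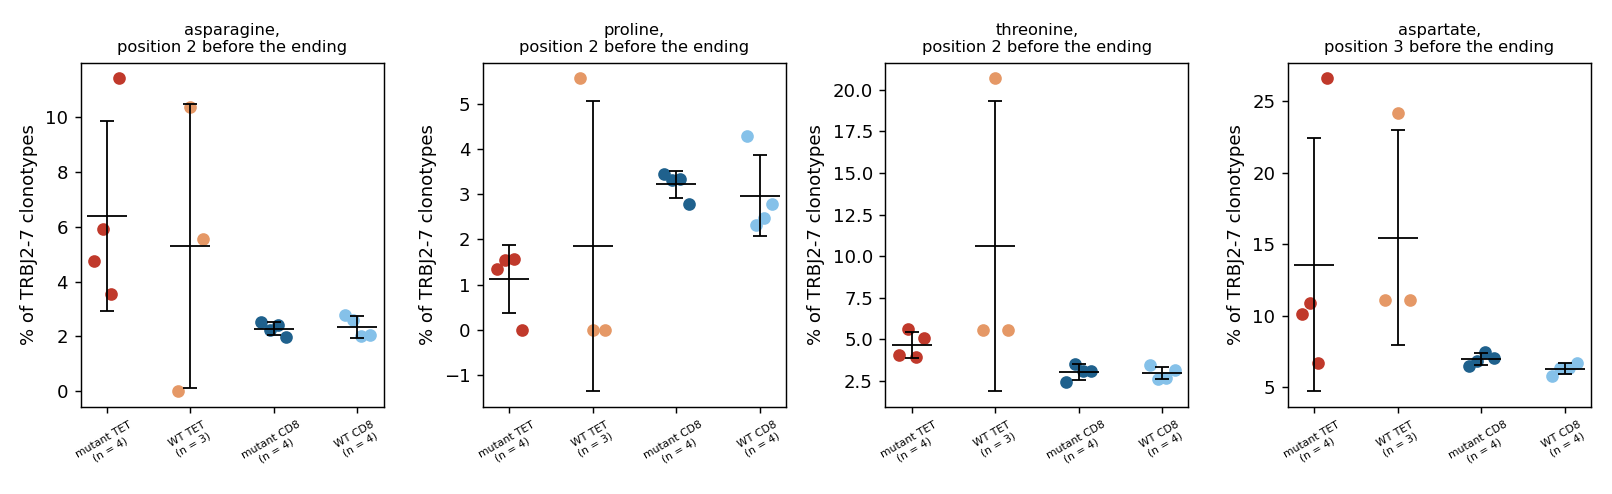
Residues before the TRBJ2-7 ending that were called between TET and CD8, as a percentage of TRBJ2-7 clonotypes in each library. Points are libraries, and bars are means with SD. Asparagine at position 2 lies above the CD8 libraries in 6 of 7 TET libraries, and aspartate at position 3 reaches 26.6% in mutant TET 4 and 24.1% in WT TET 2.

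Most TRBJ2-7 receptors were found in 1 library. Counting a receptor as a V family and an amino acid CDR3, TET libraries held 782, of which 730 were in 1 library, 38 in 2, 11 in 3 and 1 each in 4, 5 and 6 libraries. Of the 14 in at least 3 TET libraries, 9 were TRBV13, 9 had 12 residues and 9 were also found in a CD8 library. CD8 libraries held 9831 receptors, of which 0 were in all 8 libraries. The fractions had 179 receptors in common, 22.9% of those in TET and 1.82% of those in CD8. Such counts were not made for other J endings or for all receptors, so none is read as particular to TRBJ2-7. Mutant TET 1 and 2 shared the most nucleotide clonotypes, 19, which held 61.0% of the TRBJ2-7 counts of the one and 59.3% of those of the other. The receptors named here were picked for their recurrence or size, so their values are descriptions with no test, and the limits given for a count of 0 (3 counts) cover counting error only.

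The receptor in the most TET libraries was TRBV13 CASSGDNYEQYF, with aspartate and asparagine 3 and 2 positions before the ending. It took 11.5% of all counts in mutant TET 1, 7.92% in mutant TET 2, 0.605% in mutant TET 3 and 7.49% in mutant TET 4. In WT TET it took 1.04% in library 2 and 2.33% in library 3, and no count in library 1, which allows up to 0.0604%. In the CD8 fraction it was seen in 4 of 8 libraries: 12 counts in mutant CD8 2, 21 in mutant CD8 4, 172 in WT CD8 1 (1.00%) and 2 in WT CD8 4. Of its nucleotide forms printed above, the one with a run of 15 bases held 7121 of the 8617 TET counts. Its mean share was 4.41% over the 7 TET libraries, against 0.140% over the 8 CD8 libraries. Without the library in which it was largest in each fraction, it was 3.23% in TET (without mutant TET 1), against 0.0161% in CD8 (without WT CD8 1).

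TRBV13 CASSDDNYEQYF was found in 5 TET libraries. It took 4.07%, 0.575%, 3.54% and 2.97% of the counts in mutant TET 1 to 4 and 1.63% in WT TET 2. In WT TET 1 and 3 no count was seen, which allows up to 0.0604% and 0.118%. It was found in 4 CD8 libraries at 3 to 10 counts.

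TRBV3 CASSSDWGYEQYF had 1 nucleotide form in TET, which was found in 1 of 4 mutant TET libraries and in each WT TET library. It held 1272 counts in mutant TET 4 (2.11%), and 10, 13 and 4 counts in WT TET 1 to 3 (0.201%, 0.0869% and 0.158%). In mutant TET 1 to 3 no count was seen, against limits of 0.0134% to 0.0173%. Mutant CD8 3 and 4 held 1 and 2 counts. Its mean share over the 7 TET libraries was 0.366%, and without mutant TET 4 it was 0.0743%.

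Of the 11 receptors in 3 TET libraries, the 5 with the highest mean share were all TRBV13 with 12 residues. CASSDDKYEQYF and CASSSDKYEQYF were found in mutant TET libraries only, at mean shares over the 7 TET libraries of 1.62% and 0.905%. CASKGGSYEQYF (mean 1.61%), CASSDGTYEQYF (1.39%) and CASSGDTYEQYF (1.38%) were found in both strains. Among WT libraries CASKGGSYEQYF was in WT TET 2 only, at 105 counts, in the nucleotide form that held 5300 counts in mutant TET 4. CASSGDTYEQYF was also in no WT TET library but WT TET 2, where a form absent from the other TET libraries held 674 of 828 counts. Without the library in which each was largest, the 5 means were 0.0533% to 0.690%. In CD8 libraries the 5 averaged 0.000380% to 0.0368%.

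The largest TRBJ2-7 clonotype was among the 4 largest of every TET library. It was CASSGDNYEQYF in mutant TET 1 (7.99% of the library, the largest clonotype of all) and mutant TET 2 (7.41%). It was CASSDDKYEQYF in mutant TET 3 (9.13%), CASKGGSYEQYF in mutant TET 4 (8.81%) and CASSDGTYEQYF in WT TET 2 (8.72%). WT TET 3 had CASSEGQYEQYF at 4.14%, and WT TET 1 had TRBV1 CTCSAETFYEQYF at 2.48%, the only one of the 7 outside TRBV13. All but the last had 12 residues.

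The receptors found in the most CD8 libraries were other ones. TRBV13 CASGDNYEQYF was in 7 of 8 CD8 libraries, and TRBV13 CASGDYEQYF, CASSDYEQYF and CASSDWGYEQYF and TRBV12 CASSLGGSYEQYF were in 6 each. Their mean shares were 0.0203% to 0.0400%, and 2 to 10 nucleotide forms encoded each. In TET libraries they were absent, with limits of 0.00499% to 0.118%, except for 1 count of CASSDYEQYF in mutant TET 3.

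TRBJ2-7 clonotypes of a TET library that were also in the CD8 library taken to be of the same mouse numbered 3, 10, 6 and 8 in mutant TET 1 to 4 and 1, 3 and 0 in WT TET 1 to 3. They held 0.218%, 29.0%, 37.5% and 73.3% of the TRBJ2-7 counts in mutant TET and 14.5%, 15.3% and 0% in WT TET. The overlap was thus small in clonotypes and large in counts in mutant TET 2, 3 and 4. It was not counted for other J endings, so it is not read as particular to TRBJ2-7. Whether cells or molecules passed between libraries was not tested.

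The TRBJ2 endings nearest in sequence, EQFF and TQYF, averaged smaller clones in TET than TRBJ2-7, with wide spread between libraries. The log2 relative clone size averaged 0.90 ± 0.14 in mutant TET and 0.22 ± 0.40 in WT TET for TRBJ2-7. For the ending EQFF (7889 clonotypes) it averaged -0.34 ± 0.84 in mutant TET and -0.95 ± 0.40 in WT TET, and for TQYF (6518 clonotypes) -1.72 ± 2.43 and -1.76 ± 1.84. In CD8 the 3 endings averaged between -0.02 and 0.03. In mutant TET 2, EQFF was at 0.73, near the 0.79 of TRBJ2-7. TQYF was at -0.08 in mutant TET 3 and WT TET 3, and its lowest values were -5.33 in mutant TET 4 and -3.72 in WT TET 2. These values stand side by side without a test, and the shares of J endings in a library are not independent. Clone size was not compared for the remaining J endings. The mean CDR3 length in mutant TET was 13.2 ± 0.1 residues with EQYF, 14.2 ± 0.1 with EQFF and 14.0 ± 0.2 with TQYF.

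By the mean of Pearson's r over the TET and over the CD8 libraries, the J endings whose share of clonotypes ran most like that of TRBJ2-7 were TRBJ2 NTLYF (mean 0.60) and TRBJ1 APLF (mean 0.42). Pearson's r was 0.92 and 0.39 over the 7 TET libraries, and 0.28 and 0.45 over the 8 CD8 libraries. Within 1 fraction the order differed: TRBJ2 QLYF had 0.88 in TET and -0.53 in CD8, and EQFF had -0.22 in TET and 0.50 in CD8. All values share the library and its denominator, so they are descriptions only.

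The D segment named in the tables for TRBJ2-7 clonotypes was TRBD2 in 34.9 ± 5.2% in mutant TET, 43.0 ± 11.1% in WT TET, 44.9 ± 1.5% in mutant CD8 and 45.4 ± 0.59% in WT CD8. No D was named in 26.8 ± 1.7% in mutant TET, 27.5 ± 9.1% in WT TET, 23.4 ± 2.1% in mutant CD8 and 23.5 ± 1.4% in WT CD8. These shares were not tested.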

How the data were processed

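TCRβ transcripts of 15 libraries were amplified by 5′ RACE with a 9-nucleotide molecular identifier and sequenced, per the labels' protocols. The deposited tables give a count per receptor chain, which the authors made by sorting reads into clonotypes. Whether counts are reads or molecules is not stated in the labels. Aligner and build: not given in the sources used here. The fraction deposited by the authors beside it is the count over a larger total, of which the tables hold 94.2% to 99.3%; shares here use the sums of the counts. V segments are named as families and J segments as clusters. No table repeated another. The 4 alpha chain entries (6 counts) were left out, and 2077 clonotypes (3.50%) had none of the 12 J endings.

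A clonotype was a V family, J cluster and nucleotide CDR3. Library values were compared by two-sided exact permutation tests (SciPy 1.17.1), TET against CD8 within strains, with Benjamini-Hochberg adjustment over 46 tests. The lowest possible p was 0.000408 for TET against CD8 and 0.0286 for a strain comparison in either fraction. Clonotypes per J ending, V family and J ending, and residue were tested with edgeR 4.0.16 quasi-likelihood fits (R 4.3.3, minimum count 10, adjusted p under 0.05), with DESeq2 1.42.0 as an alternative. On simulated 3-fold changes the fits between TET and CD8 recovered 2 of 2 J endings, 15 of 15 pairs and 5 of 6 residues, with 1 false call, among the pairs. The strain fits gave 1 false call in the fit of 10 pairs in TET and 1 in that of 128 pairs in CD8. The simulated spread was a set dispersion, not that of these libraries, and most changes called here were smaller than 3-fold. Recovery of such changes was not tested. The 95% exact binomial (Clopper-Pearson) interval of the share of clonotypes ran from 10.8% to 26.4% in WT TET 1 and from 21.8% to 23.5% in mutant CD8 4, covering counting error only.

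TET and CD8 libraries of one strain and number were taken as 1 mouse, since both fractions came from one column. No label states it outright, and the design text's statement that no mouse gave duplicate samples can be read against it. The mouse enters as a block only in an alternative. The members and lists were chosen with earlier results of these data known. Named were all V families tested with TRBJ2-7, the 8 receptors in the most TET libraries (ties by mean share of counts), the largest of each TET library, the 5 in the most CD8 libraries, the residues called and the 2 most frequent at each position. Other alternatives were DESeq2, summed counts, no clonotypes of 1 count, 1 clonotype per receptor, the ending YEQYF, equal depth, no unequally shared clonotypes (those with a count at least 10 times higher elsewhere), and leaving out each library.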

Additional observations from a re-analysis of the deposited data

Results flagged for a closer look

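In 5 of 30 combinations of a library value and a group of 4 libraries, 1 library lay far from the other 3. The rule flags about 1 in 20 by chance. The values of a library are related, and mutant TET 4 and WT CD8 1 came up more than once, so no excess is read from the 5. The share of clonotypes was 20.1% in mutant TET 4, against 14.6% to 15.6% in the other mutant TET libraries. Tyrosine before the ending stood in 79.7% of TRBJ2-7 clonotypes of mutant TET 4, against 66.5% to 68.2%. The TRBV13 share was 40.9% in WT CD8 1, against 33.2% to 34.2%, and the log2 relative clone size of that library was 0.15, against -0.03 in the others. Serine and tyrosine before the ending stood in 24.1% in mutant CD8 3, against 26.0% to 26.3%.

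The strain difference in TET differed from that in CD8 for mean CDR3 length by 0.37 residues and for log2 relative clone size by 0.73 (exact permutation p = 0.0286 for each, adjusted 0.119). Neither passed after adjustment.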

How the results depend on the processing

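Over 69 results and 1240 alternative values, 1031 kept direction and side of the threshold, 130 were no longer past it, 7 came past it and 60 changed sign; 12 counts moved by over 1.5 times. The exact tests are read here by their unadjusted p. Exact tests of the strains in TET, and of TET minus CD8 between strains, could not pass with 1 of their libraries left out. Too few libraries remained, and their lowest p was 0.0667. The loss of a pass for length and relative clone size (7 values each in TET, 14 each for TET minus CD8) was thus fixed, and nothing is read from it. The same holds with a TET library of each strain left out together. The cause of any other change was not tested.

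TET against CD8. The difference in the share of clonotypes was -2.71 without clonotypes of 1 count, -1.36 with the ending YEQYF, -1.73 at equal depth and -3.57 with the replicate block of 7 mice, none past the threshold, and -3.98 to -2.64 without 1 library. That in the share of counts was 5.78 without unequally shared clonotypes, 2.40 without both WT TET 2 and mutant TET 4, 6.23 with the replicate block, and 3.22 to 8.18 without 1 library. Tyrosine turned to -2.62 without both libraries and ranged from -1.06 to 6.07 without 1. The J ending fit gave 0.36 with counts summed and -0.0392 in WT libraries only. With counts summed TRBV1 gave -0.65 and TRBV20 -0.49, and TRBV3 gave 1.02 in WT libraries only. V pairs called numbered 0 in WT libraries only and 6 to 10 without 1 library. Residues called numbered 18 with counts summed, 2 with the replicate block, 0 in WT libraries only, 1 without both libraries and 2 to 4 without 1. The replicate block changed no other call or sign; the 2 residues lost to it were proline and threonine.

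Mutant against WT in TET. The length difference was 0.462 without clonotypes of 1 count, 0.332 without unequally shared clonotypes, 0.390 at equal depth, 0.486 without both libraries, -0.0649 weighted by counts, and 0.330 to 0.473 without 1 library. Relative clone size differed by 0.75 without clonotypes of 1 count, 0.60 without unequally shared clonotypes, 0.91 without both libraries, and 0.48 to 0.88 without 1 library. The TRBV13 share turned to 11.2 weighted by counts and TRBV13 minus rest to -0.271 without both libraries. Tyrosine turned to 2.01 and 3.40 without unequally shared clonotypes and without both libraries (-7.76 to 6.51 without 1). The 5 largest turned to -6.92 with YEQYF and -2.36 without unequally shared clonotypes (-0.473 to 8.57). The J ending fit with counts summed gave 0.33. V pairs called and residues called were each 0 to 1 without 1 library.

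Mutant against WT in CD8, where no exact test passed: share of counts -0.292 with YEQYF (-0.427 to 1.67 without 1 library); TRBV13 0.466 without 1-count clonotypes and 0.260 at equal depth (-1.12 to 1.47); tyrosine -0.0791, -0.0131 and, by receptor, -0.174 (-0.251 to 0.594). Length minus rest was -0.00385 by receptor (-0.0156 to 0.0306), and TRBV13 minus rest -0.239 with YEQYF (-0.272 to 2.68). Leaving out 1 library gave 0.0289 to 0.0646 for length, -0.383 to 1.07 for serine and tyrosine, -0.0543 to 0.0138 for relative size and 0 to 1 V pairs called.

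The strain difference in TET minus that in CD8 turned to -0.182 for length and 15.5 for TRBV13 weighted by counts, to 0.301 for TRBV13 at equal depth, to 2.16 and 3.77 for tyrosine without unequally shared clonotypes and without both libraries (-7.69 to 6.64 without 1 library), and to -2.77 for the 5 largest with YEQYF. Serine and tyrosine ranged from -2.25 to 15.6. Within CD8, TRBV13 minus rest was -0.0997 by receptor (-0.520 to 0.745), and relative size 0.00803 by receptor and 0.00304 with YEQYF (-0.0245 to 0.00526). The fit of V pairs between strains in TET with TRBJ2-7 clonotypes as library size was not run, since it could not be fitted. The WT TET libraries held 18 to 29 TRBJ2-7 clonotypes each.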
